A study of Mus musculus with 3 samples.

Results

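The 10 mouse genes described here serve antigen presentation by major histocompatibility complex (MHC) class II: H2-Aa, H2-Ab1, H2-Eb1, H2-DMa, H2-DMb1, H2-DMb2, H2-Oa, H2-Ob, Cd74 and Ciita. They were matched by gene symbol, and 10 of the 32286 genes in the deposited count matrices carried these names. The lavage cells came from 3 groups of mice, which all received bleomycin (BLM), a drug that injures the lung and is followed by fibrosis, through the airway and were lavaged 14 days later. The groups were wild-type mice treated with GW5074, a synthetic inhibitor of Raf kinase (WT GW5074), mice labelled as Clec7a knockouts and as DMSO (KO DMSO), and wild-type mice labelled as DMSO, a common solvent control (WT DMSO). Lavage of a group was pooled before cells bearing CD11b or CD11c were sorted, and 1 droplet library reading the 3′ ends of transcripts was made per group. The number, strain, sex and age of the mice, the dose and timing of GW5074 and the kind of deletion are not given in the sources used here, and mice without bleomycin were not analysed here. With 1 library a group, a difference between libraries cannot be told apart from a difference between pools of mice or between library preparations, and no test of a condition was possible.

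MHC class II molecules are pairs of an alpha and a beta chain that show peptides from taken-up material to CD4+ T cells. In the endoplasmic reticulum the pairs bind the invariant chain, the product of Cd74, which fills the groove and routes them to endosomes, where proteases trim it to a short fragment called CLIP. H2-DM, a pair of H2-DMa with a beta chain from H2-DMb1 or H2-DMb2, takes CLIP out and lets other peptides in, and H2-DO, a pair of H2-Oa and H2-Ob best known from B cells, restrains H2-DM. Ciita encodes the coactivator that class II transcription depends on. CIITA does not bind DNA itself but docks on RFX, CREB and NF-Y proteins at the X and Y boxes upstream of class II genes. In the mouse lung, conventional dendritic cells and B cells are known to carry much class II and resident alveolar macrophages little, and mouse T cells are not known to make it.

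Of the 10 genes, 8 lie on chromosome 17 within the MHC, and Cd74 and Ciita on 2 other chromosomes (build GRCm38, the mm10 of the submitters' processing notes, with GENCODE M21 annotation). The alpha chain gene H2-Aa spans chr17:34282744-34287823 (- strand), and the beta chain genes H2-Ab1 and H2-Eb1 span chr17:34257689-34269419 (+ strand) and chr17:34305867-34316674 (+ strand). The peptide exchange genes follow each other at chr17:34119541-34139101 (+ strand) for H2-DMa, chr17:34143307-34151555 (+ strand) for H2-DMb2 and chr17:34153072-34160230 (+ strand) for H2-DMb1. H2-Oa spans chr17:34092340-34095234 (+ strand) and H2-Ob chr17:34238903-34254414 (+ strand). Other annotated genes overlap H2-Eb1, H2-DMa, H2-Oa, Cd74 and Ciita. The strand setting of the counting is not given in the sources used here, so the counts of these 5 genes may hold reads of their neighbours.

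Sequences upstream of RefSeq starts of 6 members are shown because the genes share the boxes through which CIITA is known to act. RefSeq promoter windows (GRCm38.p6, 250 bases before to 50 after a start) were at hand for 7 of the 10 members, not for H2-Ab1, Cd74 or Ciita. Capitals mark GCAAC, a core of the X box, or its last letters AAC, and GATTGG, which holds the reverse complement of the CCAAT letters of the Y box. Each line reads 5′ to 3′ on the gene's own strand.
H2-Aa: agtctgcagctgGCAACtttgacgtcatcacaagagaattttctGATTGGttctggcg
H2-Eb1: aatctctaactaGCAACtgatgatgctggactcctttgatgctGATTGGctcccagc
H2-Oa: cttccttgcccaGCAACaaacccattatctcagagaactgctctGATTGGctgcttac
H2-Ob: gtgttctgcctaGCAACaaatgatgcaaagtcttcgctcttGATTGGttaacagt
H2-DMb1: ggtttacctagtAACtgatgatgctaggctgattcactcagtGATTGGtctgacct
H2-DMb2: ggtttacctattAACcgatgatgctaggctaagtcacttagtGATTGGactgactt
The stretches lie at chr17:34287859-34287916 on the - strand for H2-Aa, chr17:34305764-34305820 on the + strand for H2-Eb1, chr17:34092291-34092348 on the + strand for H2-Oa, chr17:34238806-34238860 on the + strand for H2-Ob, chr17:34153087-34153142 on the + strand for H2-DMb1 and chr17:34145116-34145171 on the + strand for H2-DMb2. The H2-DMb1 and H2-DMb2 stretches lie before RefSeq starts but inside the GENCODE spans given above, which begin further upstream. Between the capitals lie 27 bases in H2-Aa, H2-Oa, H2-DMb1 and H2-DMb2, 26 in H2-Eb1 and 24 in H2-Ob. On either strand GATTGG was found in 7 of 7 members and in 16.1% of the 32851 promoters of the same length. GCAAC was found in 5 of 7 members and 35.2% of all. GCAAC followed by GATTGG on the same strand, 15 to 40 bases apart, was found in 4 of 7 members and 0.435% of promoters, and AAC followed by GATTGG in 6 of 7 and 4.61%. Neither H2-DMa window held such a pair. These windows, at chr17:34122582-34122881 and chr17:34125268-34125567, lie inside the H2-DMa span given above, and the start of that span was not searched. A match is a description of letters and shows no binding.

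After filters of 200 genes and 20% mitochondrial unique molecular identifiers (UMIs, 1 per captured transcript), 17792 WT GW5074, 11642 KO DMSO and 13454 WT DMSO cells were kept, with medians of 2276 UMIs in WT GW5074, 2937 UMIs in KO DMSO and 2438.5 UMIs in WT DMSO cells. Any pair of libraries shared between 80 and 154 cell barcodes, at most 1.14% of a library. Cells were clustered without the 10 members, clusters were named from marker genes, and a cell was kept in its class if it held UMIs of at least 2 distinct markers of it. This gave 5818 WT GW5074, 4521 KO DMSO and 1800 WT DMSO resident alveolar macrophage-like cells and 4283 WT GW5074, 2247 KO DMSO and 1208 WT DMSO monocyte-derived macrophage-like cells. Type 1 and type 2 conventional dendritic cell-like cells (cDC1-like and cDC2-like) numbered 815 WT GW5074, 583 KO DMSO and 532 WT DMSO cDC1-like cells and 323 WT GW5074, 214 KO DMSO and 408 WT DMSO cDC2-like cells. There were 2717 WT GW5074, 1734 KO DMSO and 3279 WT DMSO migratory dendritic cell-like cells, 91 WT GW5074, 60 KO DMSO and 326 WT DMSO B cell-like cells, 471 WT GW5074, 413 KO DMSO and 486 WT DMSO T cell-like cells and 113 WT GW5074, 226 KO DMSO and 3028 WT DMSO neutrophil-like cells. The gate left out 482 WT GW5074, 190 KO DMSO and 160 WT DMSO cells with 1 marker in the resident clusters, and 142 WT GW5074, 56 KO DMSO and 77 WT DMSO cells in the T cell cluster. In each library at least 11 of the 12 resident macrophage markers, and all markers of the other 7 classes, were at 10 counts per 1000000 UMIs (CPM) or more in their own class. Clec7a, which encodes the beta-glucan receptor dectin-1, stood at 874 CPM in WT GW5074, 15.4 CPM in KO DMSO and 818 CPM in WT DMSO resident macrophage-like cells, and so went with the labels.

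The WT DMSO library stood apart, with neutrophil-like cells at 0.635% in WT GW5074, 1.94% in KO DMSO and 22.5% in WT DMSO cells. Neutrophil marker RNA was higher there in the other classes too, for example at 246 CPM in WT GW5074, 242 CPM in KO DMSO and 618 CPM in WT DMSO monocyte-derived macrophage-like cells. In the cDC1-like class it was at 179 CPM in WT GW5074, 154 CPM in KO DMSO and 924 CPM in WT DMSO cDC1-like cells. Its part in the results was not tested, and the summed ratios of KO DMSO are therefore also given over WT GW5074. B and T cells are not what a sort on CD11b or CD11c aims at, and how those cells came through the sort was not tested.

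Class II RNA was most abundant in conventional dendritic cells, and of the macrophages the monocyte-derived ones held more than the resident ones. A level here is the CPM of all UMIs of a class in 1 library, and the summed level adds H2-Aa, H2-Ab1, H2-Eb1 and Cd74. The summed level was 34803 CPM in WT GW5074, 47979 CPM in KO DMSO and 35498 CPM in WT DMSO cDC1-like cells. It was 27930.4 CPM in WT GW5074, 39416 CPM in KO DMSO and 29624 CPM in WT DMSO cDC2-like cells. The KO DMSO value of the cDC2-like class lay above 2 of the cDC1-like values, while within each library the cDC1-like class was the higher. The level was 10699 CPM in WT GW5074, 14505 CPM in KO DMSO and 11015 CPM in WT DMSO B cell-like cells. It was 10120.4 CPM in WT GW5074, 14265 CPM in KO DMSO and 8508 CPM in WT DMSO migratory dendritic cell-like cells. It was 7619.6 CPM in WT GW5074, 10919.9 CPM in KO DMSO and 7763 CPM in WT DMSO monocyte-derived macrophage-like cells. The ranges of these last 3 classes overlapped. Resident macrophages lay below all of them in every library, at 2654 CPM in WT GW5074, 2719.7 CPM in KO DMSO and 2643 CPM in WT DMSO resident macrophage-like cells. Neutrophil-like cells, which are not known for class II, lay lower still. In the smallest group, the B cell-like cells of KO DMSO, the 95% Poisson interval ran over 13760.4 to 15279 CPM, which holds the KO DMSO level of the migratory class, so the order of these 2 classes in KO DMSO is within counting error. Intervals here and below cover counting error only.

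**Figure D1:**
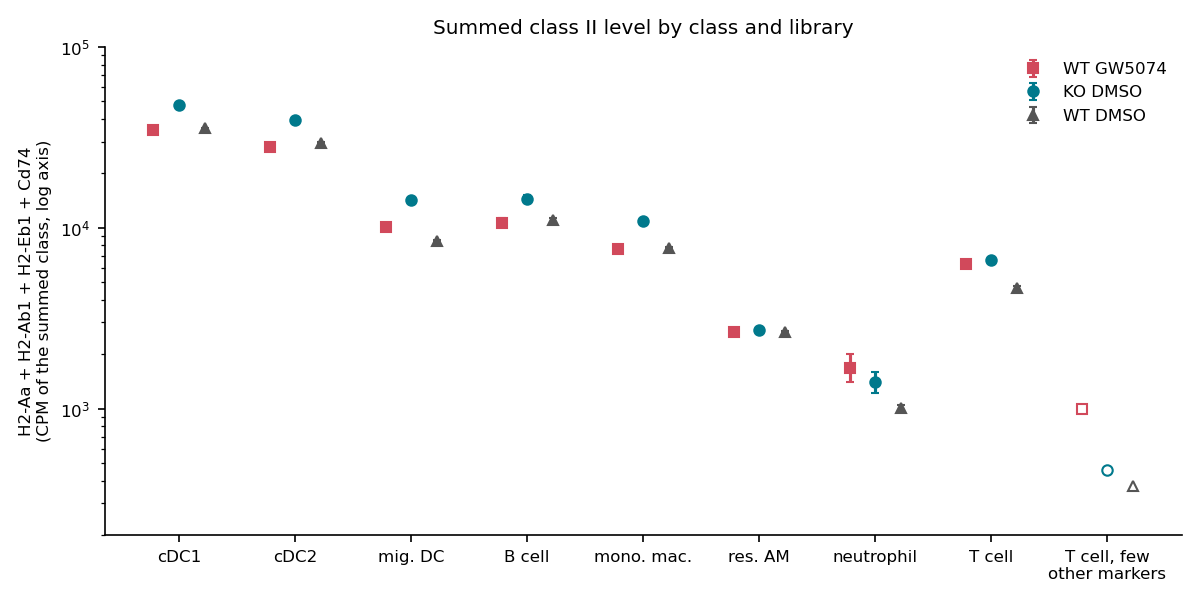
Summed CPM of H2-Aa, H2-Ab1, H2-Eb1 and Cd74 by cell class, with 1 point per library and 95% counting intervals. cDC1-like and cDC2-like cells stand above every other class in all 3 libraries, and in the dendritic, B cell-like and monocyte-derived macrophage classes the KO DMSO point is the highest of the 3. The KO DMSO level is also the highest of the 3 in T cell-like cells, not known to make class II, and narrowly so in resident macrophages.

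The classical chains mostly kept this order. H2-Aa, the alpha chain of the A molecule, was at 7249.6 CPM in WT GW5074, 10213 CPM in KO DMSO and 7287 CPM in WT DMSO cDC1-like cells. In the cDC2-like class H2-Aa was at 5559 CPM in WT GW5074, 7993 CPM in KO DMSO and 6608 CPM in WT DMSO cDC2-like cells. It was at 2261 CPM in WT GW5074, 3290.5 CPM in KO DMSO and 2041 CPM in WT DMSO migratory dendritic cell-like cells, against 1444 CPM in WT GW5074, 2075 CPM in KO DMSO and 1502 CPM in WT DMSO monocyte-derived macrophage-like cells. H2-Aa was lowest of these classes in resident macrophages and nearly alike in the libraries, at 481 CPM in WT GW5074, 489.6 CPM in KO DMSO and 495 CPM in WT DMSO resident macrophage-like cells. H2-Eb1, the beta chain of the E molecule, was at 6703 CPM in WT GW5074, 8657 CPM in KO DMSO and 6876 CPM in WT DMSO cDC1-like cells. It was at 1882 CPM in WT GW5074, 2504 CPM in KO DMSO and 1648 CPM in WT DMSO migratory dendritic cell-like cells. H2-Eb1 was at 263 CPM in WT GW5074, 252 CPM in KO DMSO and 289 CPM in WT DMSO resident macrophage-like cells. No gene in the count matrices carried the symbol H2-Ea, that of the partner chain of H2-Eb1. H2-Ab1, the beta chain of the A molecule, was at 7483 CPM in WT GW5074, 9086 CPM in KO DMSO and 7658 CPM in WT DMSO cDC1-like cells. H2-Ab1 was at 1189.6 CPM in WT GW5074, 1343 CPM in KO DMSO and 946 CPM in WT DMSO migratory dendritic cell-like cells, against 1446 CPM in WT GW5074, 1880.1 CPM in KO DMSO and 1546 CPM in WT DMSO monocyte-derived macrophage-like cells. The migratory dendritic class thus lay below the monocyte-derived macrophages for H2-Ab1, with no overlap between the libraries, where for H2-Aa it lay above them in each library. Cd74, the invariant chain gene at chr18:60803848-60812652 (+ strand), gave the most UMIs of the 10 genes in each of these classes, in counts of transcript ends that are not scaled to length. It was at 13368 CPM in WT GW5074, 20023 CPM in KO DMSO and 13676 CPM in WT DMSO cDC1-like cells. Its lowest levels of these classes were 1431 CPM in WT GW5074, 1529 CPM in KO DMSO and 1333 CPM in WT DMSO resident macrophage-like cells.

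The chains did not keep 1 ratio to each other across classes. Of the summed class II UMIs, H2-Ab1 gave 21.5% in WT GW5074, 18.9% in KO DMSO and 21.6% in WT DMSO cDC1-like cells. It gave 19.0% in WT GW5074, 17.2% in KO DMSO and 19.9% in WT DMSO monocyte-derived macrophage-like cells. Its share was lower in migratory dendritic cells than in every other class in each library, at 11.8% in WT GW5074, 9.41% in KO DMSO and 11.1% in WT DMSO migratory dendritic cell-like cells. Cd74 gave 38.4% in WT GW5074, 41.7% in KO DMSO and 38.5% in WT DMSO cDC1-like cells. In the resident class its share was larger, at 53.9% in WT GW5074, 56.2% in KO DMSO and 50.4% in WT DMSO resident macrophage-like cells. In each of the macrophage, dendritic, B cell-like and T cell-like classes the Cd74 share was the highest of the 3 libraries in KO DMSO.

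Among the peptide exchange genes, the classes differed in which beta chain gene they used. H2-DMa, the alpha chain of H2-DM, was at 1255 CPM in WT GW5074, 1291 CPM in KO DMSO and 1069 CPM in WT DMSO cDC1-like cells. It was at 287 CPM in WT GW5074, 288 CPM in KO DMSO and 296 CPM in WT DMSO monocyte-derived macrophage-like cells. It was at 248 CPM in WT GW5074, 225 CPM in KO DMSO and 221 CPM in WT DMSO resident macrophage-like cells. Migratory dendritic cells were lower than both macrophage classes for H2-DMa, at 90.5 CPM in WT GW5074, 89.2 CPM in KO DMSO and 85.7 CPM in WT DMSO migratory dendritic cell-like cells, although their summed class II level was higher than either. H2-DMb1 showed the same order, with 171 CPM in WT GW5074, 223 CPM in KO DMSO and 181 CPM in WT DMSO monocyte-derived macrophage-like cells. In the migratory class H2-DMb1 was at 44.5 CPM in WT GW5074, 36.9 CPM in KO DMSO and 31.7 CPM in WT DMSO migratory dendritic cell-like cells. H2-DMb2 had the opposite order, with 11.3 CPM in WT GW5074, 13.4 CPM in KO DMSO and 11.5 CPM in WT DMSO monocyte-derived macrophage-like cells, against 54.5 CPM in WT GW5074, 58.9 CPM in KO DMSO and 41.5 CPM in WT DMSO migratory dendritic cell-like cells.

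The share of H2-DMb2 in the UMIs of both beta chain genes put this in 1 number per class. It was 6.29% in WT GW5074, 6.5% in KO DMSO and 5.35% in WT DMSO resident macrophage-like cells. It was 6.17% in WT GW5074, 5.66% in KO DMSO and 5.95% in WT DMSO monocyte-derived macrophage-like cells. The share was 16.5% in WT GW5074, 14.0% in KO DMSO and 20.9% in WT DMSO cDC1-like cells, above the macrophages in every library. It was 53.3% in WT GW5074, 51.0% in KO DMSO and 49.6% in WT DMSO cDC2-like cells. In the migratory class it was 55.0% in WT GW5074, 61.5% in KO DMSO and 56.7% in WT DMSO migratory dendritic cell-like cells. It was 63.3% in WT GW5074, 66.0% in KO DMSO and 63.7% in WT DMSO B cell-like cells. The macrophage values did not overlap those of any dendritic or B cell-like class, and the cDC1-like values lay between the macrophages and the other 3 classes. H2-DMb1 and H2-DMb2 are close copies, so their split depends on how reads were assigned. Their transcripts were 94.6% identical over 1219 aligned bases, and 75.8% over 273 aligned bases of the last 300, where a 3′ library reads. No window of 31 bases in the last 300 was common to both, and the assignment of single reads was not tested.

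The H2-O genes set B cells and conventional dendritic cells apart from macrophages, and migratory dendritic cells less so. H2-Ob had its highest level in B cells, at 273 CPM in WT GW5074, 255 CPM in KO DMSO and 228 CPM in WT DMSO B cell-like cells. It was at 203 CPM in WT GW5074, 207 CPM in KO DMSO and 192 CPM in WT DMSO cDC1-like cells. H2-Oa had its highest level in the cDC2-like class, at 149 CPM in WT GW5074, 186 CPM in KO DMSO and 121 CPM in WT DMSO cDC2-like cells, against 61.7 CPM in WT GW5074, 102 CPM in KO DMSO and 64.3 CPM in WT DMSO B cell-like cells. In macrophages both genes were under 10 CPM. H2-Oa was at 1.51 CPM in WT GW5074, 1.05 CPM in KO DMSO and 1.83 CPM in WT DMSO resident macrophage-like cells, which rest on 23 WT GW5074, 14 KO DMSO and 12 WT DMSO UMIs, and H2-Ob at 1.45 CPM in WT GW5074, 1.12 CPM in KO DMSO and 1.22 CPM in WT DMSO resident macrophage-like cells. Of all H2-O and H2-DM UMIs, the H2-O genes gave 33.0% in WT GW5074, 30.7% in KO DMSO and 30.4% in WT DMSO B cell-like cells. Their share was 15.4% in WT GW5074, 14.9% in KO DMSO and 14.9% in WT DMSO cDC2-like cells. It was 0.911% in WT GW5074, 1.06% in KO DMSO and 0.842% in WT DMSO monocyte-derived macrophage-like cells, the lowest of these 3 classes in every library.

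**Figure D2:**
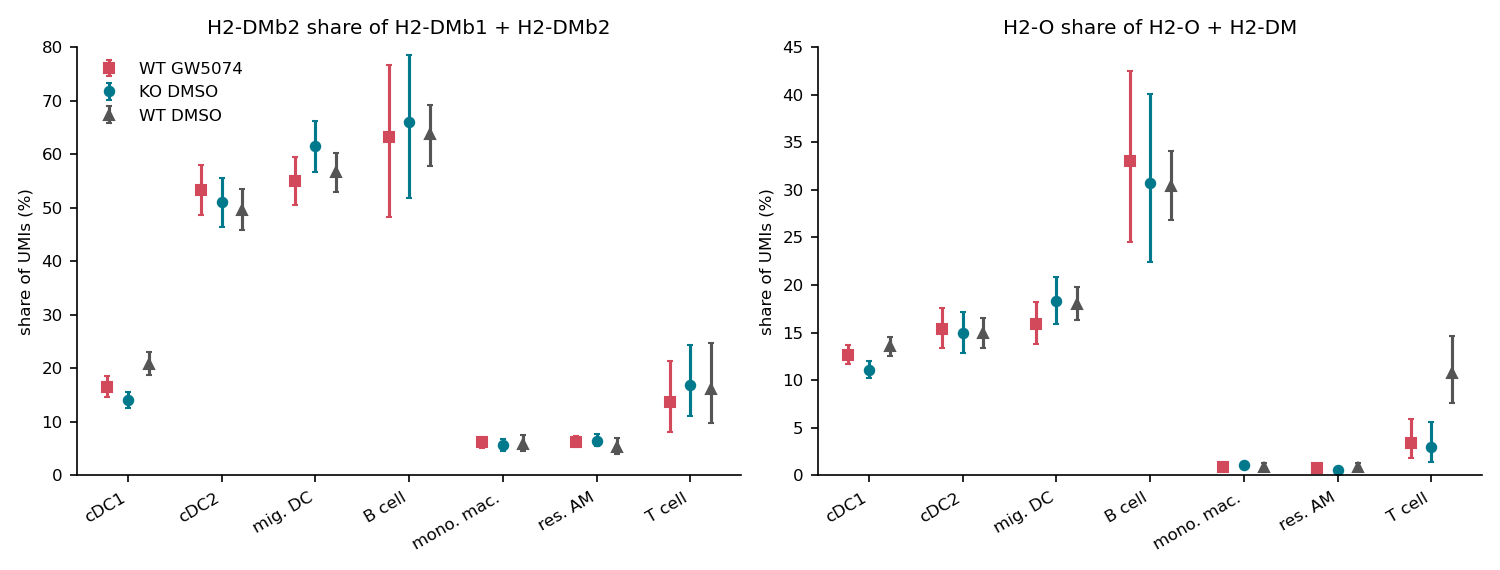
The share of H2-DMb2 in the UMIs of both H2-DM beta chain genes (left) and of H2-Oa and H2-Ob in the UMIs of the H2-O and H2-DM genes (right), in percent by cell class, with 1 point per library and 95% Clopper-Pearson intervals. Both macrophage classes (mono. mac. and res. AM) lie below every dendritic class and B cells in both panels.

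Ciita, at chr16:10480059-10528418 (+ strand), separated conventional dendritic cells and B cells from the rest by level. It was at 611 CPM in WT GW5074, 587 CPM in KO DMSO and 631 CPM in WT DMSO cDC1-like cells. It was at 546 CPM in WT GW5074, 673 CPM in KO DMSO and 414 CPM in WT DMSO cDC2-like cells. B cells came next, at 212 CPM in WT GW5074, 214 CPM in KO DMSO and 189.7 CPM in WT DMSO B cell-like cells. In migratory dendritic cells Ciita was much lower, at 55.3 CPM in WT GW5074, 55.0 CPM in KO DMSO and 47.3 CPM in WT DMSO migratory dendritic cell-like cells, which overlapped 44.6 CPM in WT GW5074, 49.7 CPM in KO DMSO and 47.2 CPM in WT DMSO monocyte-derived macrophage-like cells. The summed class II level of the migratory class was nevertheless the higher of these 2 classes in every library. In the resident class Ciita was at 24.7 CPM in WT GW5074, 18.0 CPM in KO DMSO and 21.1 CPM in WT DMSO resident macrophage-like cells, below the monocyte-derived class in each library. T cell-like cells, not known to make class II, had Ciita at 47.4 to 85.0 CPM over the libraries. That range overlapped those of the migratory and monocyte-derived classes and lay above that of the resident class. The part of free RNA and doublets in these low Ciita levels was not tested.

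**Figure D3:**
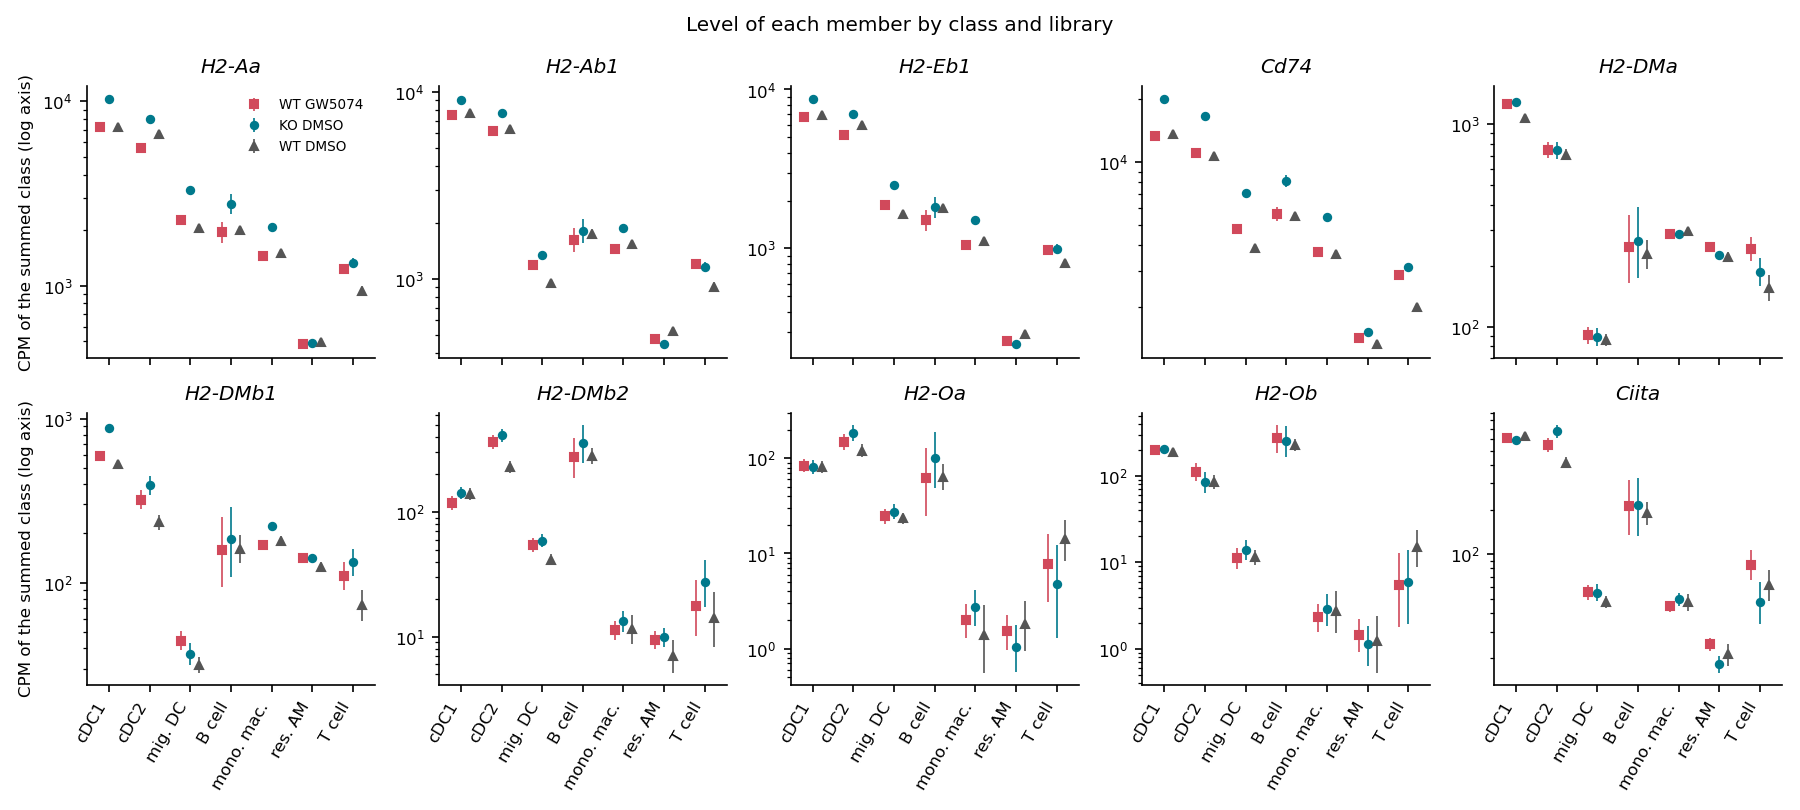
Level of each member in CPM on log axes, by cell class, with 1 point per library and 95% counting intervals. Of the 7 classes drawn, which leave out neutrophil-like cells, the classical chains and Cd74 are highest in cDC1-like and lowest in resident macrophage-like cells, H2-DMa and H2-DMb1 are lower in migratory dendritic cell-like cells than in macrophages, and H2-Oa and H2-Ob are under 10 CPM in both macrophage classes.

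T cell-like cells gauged how much class II RNA a cell can carry that is not known to make it. Their summed level was 6281 CPM in WT GW5074, 6620.5 CPM in KO DMSO and 4670.3 CPM in WT DMSO T cell-like cells and lay above resident macrophages, but it was spread unevenly over cells. The median was 1 UMI per cell in each library, while the 90th percentile was 45 UMIs in WT GW5074, 46.0 UMIs in KO DMSO and 30.5 UMIs in WT DMSO T cell-like cells. Many of these cells carried markers of another class. Those with at least 2 such markers (247 WT GW5074, 183 KO DMSO and 263 WT DMSO cells) averaged 22.3 class II UMIs in WT GW5074, 29.8 class II UMIs in KO DMSO and 20.9 class II UMIs in WT DMSO cells. Their median depths were 2825 UMIs in WT GW5074, 3206 UMIs in KO DMSO and 2739 UMIs in WT DMSO cells. A narrower set, chosen after the values were seen, had at least 3 T cell markers and at most 1 marker of any other class (136 WT GW5074, 176 KO DMSO and 171 WT DMSO cells). This rule picks shallow cells, with median depths of 726.5 UMIs in WT GW5074, 1001 UMIs in KO DMSO and 1039 UMIs in WT DMSO cells. The narrower set averaged 0.824 class II UMIs in WT GW5074, 0.5 class II UMIs in KO DMSO and 0.439 class II UMIs in WT DMSO cells. In CPM it was at 996 CPM in WT GW5074, 458 CPM in KO DMSO and 371 CPM in WT DMSO cells. The T cell level therefore depended on which cells were counted as T cells, and in every library the narrower set lay below resident macrophages. The rule of that set leaves out cells with 2 or more markers of another class, which carried most class II. Its low level is thus partly fixed by the rule and cannot gauge the class II RNA of T cell-like cells. Single members were also found in the whole T cell-like class. H2-DMa was there at 155 to 243 CPM over the libraries, above the migratory dendritic class. H2-DMb2 was at 14.2 to 27.3 CPM, above both macrophage classes.

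The share of cells with a class II UMI was read beside the levels. Of resident macrophages, 78.9% in WT GW5074, 81.1% in KO DMSO and 79.8% in WT DMSO cells had one, at median depths of 2400.5 UMIs in WT GW5074, 2930.0 UMIs in KO DMSO and 3306 UMIs in WT DMSO cells. Of the narrower T cell set, 26.5% in WT GW5074, 41.5% in KO DMSO and 32.7% in WT DMSO cells had one. With each cell thinned to 1000 UMIs and shallower cells left out, the shares were 62.7% in WT GW5074, 62.0% in KO DMSO and 59.2% in WT DMSO resident macrophage-like cells. In the narrower T cell set they were 46.2% in WT GW5074, 46.1% in KO DMSO and 27.5% in WT DMSO cells, of only 26 WT GW5074, 89 KO DMSO and 91 WT DMSO cells. Neutrophil-like cells, another class not known for class II, were at 1676 CPM in WT GW5074, 1399 CPM in KO DMSO and 1002 CPM in WT DMSO neutrophil-like cells, below resident macrophages in every library. They were shallow, with median depths of 571 UMIs in WT GW5074, 603 UMIs in KO DMSO and 644.5 UMIs in WT DMSO neutrophil-like cells. Thinned to 1000 UMIs they averaged 2.85 class II UMIs in WT GW5074, 5.42 class II UMIs in KO DMSO and 1.46 class II UMIs in WT DMSO neutrophil-like cells, on 13 WT GW5074, 12 KO DMSO and 426 WT DMSO cells, against 2.69 class II UMIs in WT GW5074, 2.64 class II UMIs in KO DMSO and 2.59 class II UMIs in WT DMSO resident macrophage-like cells. On those few WT GW5074 and KO DMSO cells the neutrophil-like mean did not lie below the resident one. A UMI of class II was thus found in many cells not known to make it, and the comparisons use summed counts.

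Among monocyte-derived macrophages, class II RNA was carried by 1 state far more than by the others. The class held 3 clusters, and the members took no part in forming them, although genes that vary with them could. In the cluster led by Mmp12 and Dcstamp, a macrophage elastase and a gene of cell fusion, the summed level was 16568 CPM in WT GW5074, 21568 CPM in KO DMSO and 15871 CPM in WT DMSO cells of the Mmp12 cluster. The cluster led by the complement genes C1qc and C1qa had 4265 CPM in WT GW5074, 5496 CPM in KO DMSO and 3638 CPM in WT DMSO cells of the C1qc cluster. The cluster led by the interferon-induced genes Ifit3 and Cxcl10 had 5371 CPM in WT GW5074, 5938 CPM in KO DMSO and 3009.9 CPM in WT DMSO cells of the Ifit3 cluster. All values of the Mmp12 cluster lay above all values of the other 2 clusters. Ciita followed, at 113 CPM in WT GW5074, 117 CPM in KO DMSO and 112 CPM in WT DMSO cells of the Mmp12 cluster. It was at 18.2 CPM in WT GW5074, 14.1 CPM in KO DMSO and 13.1 CPM in WT DMSO cells of the C1qc cluster. H2-DMa was at 505 CPM in WT GW5074, 451 CPM in KO DMSO and 504 CPM in WT DMSO cells of the Mmp12 cluster, against 202 CPM in WT GW5074, 206 CPM in KO DMSO and 185 CPM in WT DMSO cells of the C1qc cluster. H2-DMb2 was low in both, at 22.4 CPM in WT GW5074, 24.6 CPM in KO DMSO and 21.5 CPM in WT DMSO cells of the Mmp12 cluster and 6.90 CPM in WT GW5074, 7.25 CPM in KO DMSO and 6.71 CPM in WT DMSO cells of the C1qc cluster. Thinned to 1000 UMIs, the median cell of the Mmp12 cluster held 15 class II UMIs in WT GW5074, 19 class II UMIs in KO DMSO and 14 class II UMIs in WT DMSO cells. In the C1qc cluster it held 2 in WT GW5074, 2 in KO DMSO and 1 in WT DMSO cells. Markers of dendritic cells were not alike in the clusters. Those of cDC2 summed to 512 CPM in WT GW5074, 577 CPM in KO DMSO and 459 CPM in WT DMSO cells of the Mmp12 cluster, with 3 of 9 at 10 CPM or more and Mgl2, one of them, among the 10 leading genes of the cluster. They summed to 47.5 CPM in WT GW5074, 49.1 CPM in KO DMSO and 59.1 CPM in WT DMSO cells of the C1qc cluster. The cDC1 markers summed to 665 CPM in WT GW5074, 604 CPM in KO DMSO and 648 CPM in WT DMSO cells of the Mmp12 cluster, against 454 CPM in WT GW5074, 414 CPM in KO DMSO and 454 CPM in WT DMSO cells of the C1qc cluster. The Mmp12 cluster, with the most class II, thus also had the most cDC2 marker RNA of the 3 clusters in each library, and its part in the class II level was not tested.

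Resident alveolar macrophages also fell into states with different levels. In the cluster led by Car4 and Kcnn3 the summed level was 3966 CPM in WT GW5074, 4894 CPM in KO DMSO and 3945 CPM in WT DMSO cells of the Car4 cluster. The cluster led by Htr2c and Krt79 had 1607 CPM in WT GW5074, 1291 CPM in KO DMSO and 1192 CPM in WT DMSO cells of the Htr2c cluster. In each library the Car4 cluster was the highest and the Htr2c cluster the lowest of the 4 clusters of the class. The cluster led by Fabp4 and Ear1 had 1785 CPM in WT GW5074, 1904 CPM in KO DMSO and 1652 CPM in WT DMSO cells of the Fabp4 cluster, and the cluster led by the cell cycle gene Cenpf had 2920.0 CPM in WT GW5074, 2388 CPM in KO DMSO and 2692 CPM in WT DMSO cells of the Cenpf cluster. Ciita was at 40.2 CPM in WT GW5074, 32.8 CPM in KO DMSO and 40.6 CPM in WT DMSO cells of the Car4 cluster, against 17.2 CPM in WT GW5074, 9.89 CPM in KO DMSO and 4.48 CPM in WT DMSO cells of the Htr2c cluster. The makeup of the class differed between libraries. Of it, the Car4 cluster gave 39.1% in WT GW5074, 33.7% in KO DMSO and 47.4% in WT DMSO resident macrophage-like cells, and the Htr2c cluster gave 34.3% in WT GW5074, 40.2% in KO DMSO and 24.2% in WT DMSO resident macrophage-like cells.

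**Figure D4:**
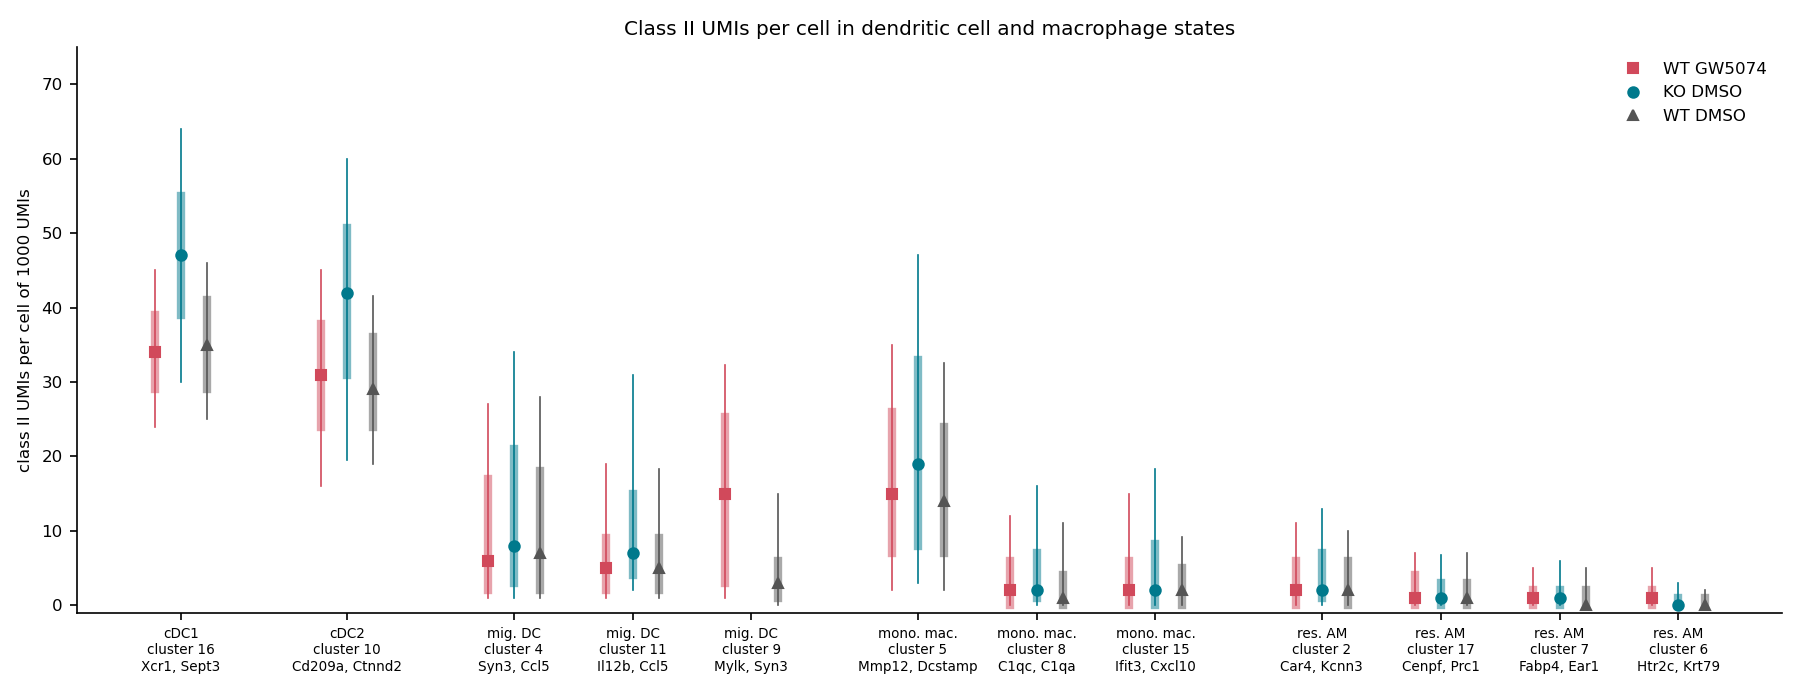
Class II UMIs (H2-Aa, H2-Ab1, H2-Eb1 and Cd74) per cell after thinning each cell to 1000 UMIs, by cluster and library, with the median (symbol), the middle 50% of cells (bar) and the 10th to 90th percentiles (line). The Mmp12 cluster (cluster 5) has medians of 14 to 19 UMIs, against 1 to 2 in the C1qc cluster (cluster 8); groups under 50 cells are left out.

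GW5074 treatment was set against its solvent in wild-type mice. The class II levels of the 2 macrophage classes, each taken whole, were close in the 2 libraries. A gene is called higher or lower where it is at least 1.5-fold apart and the 95% interval of its ratio leaves out 1, among genes at 10 CPM or more in 1 of the 2 libraries. In resident macrophages the log2 ratio of the summed level, WT GW5074 over WT DMSO, was 0.0061 (95% interval -0.020 to 0.032). There 0 of 7 members tested were called, beside 0.68% of all 8381 genes called higher and 0.513% lower. In the monocyte-derived class the ratio was -0.027 (95% interval -0.044 to -0.0099). There 0 of 8 members were called, beside 0.692% of all genes called higher and 0.74% lower. The median log2 ratio was -0.070 over the members tested and -0.012 over all genes tested in the monocyte-derived class. H2-DMb2, H2-Oa and H2-Ob in resident and H2-Oa and H2-Ob in monocyte-derived macrophages were under 10 CPM and not tested. In the classes not known to make class II the summed log2 ratio of WT GW5074 over WT DMSO was 0.43 (95% interval 0.37 to 0.48) in T cell-like and 0.74 (95% interval 0.47 to 1.0) in neutrophil-like cells. The neutrophil-like ratio was past 1.5-fold, beside 4.74% of genes called higher there. Counting error left room for no 1.5-fold difference of the summed level between these 2 libraries in either macrophage class taken whole. At such shares of calls a count of 0 is near the background. The resident clusters were not alike. In WT GW5074 over WT DMSO, 2 of 7 members were called higher in the Htr2c cluster, beside 2.46% of genes. All 7 lay above 0 there, with a median log2 ratio of 0.56 over the members and 0.018 over all genes. In the Cenpf cluster 1 of 7 was called higher, and 0 of 8 in the Car4 and 0 of 6 in the Fabp4 cluster.

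In the dendritic and B cell-like classes the summed log2 ratio of WT GW5074 over WT DMSO was -0.029 (95% interval -0.043 to -0.014) in cDC1-like cells. It was -0.085 (95% interval -0.11 to -0.060) in cDC2-like cells. It was -0.042 (95% interval -0.13 to 0.046) in B cell-like cells and 0.25 (95% interval 0.23 to 0.27) in migratory dendritic cell-like cells. None of these summed levels was 1.5-fold apart. Of the 10 members, all tested in these 4 classes, H2-DMb2 was called higher in cDC2-like cells and no other member was called. H2-DMb2 was there at 366 CPM in WT GW5074 and 230.4 CPM in WT DMSO cells, a log2 ratio of 0.67 (95% interval 0.42 to 0.91). The share of all genes called higher was 2.99% in cDC1-like, 8.47% in cDC2-like, 2.91% in migratory and 3.75% in B cell-like cells. The share called lower was 1.81% in cDC1-like, 6.13% in cDC2-like, 6.18% in migratory and 1.68% in B cell-like cells. A count of 1 in 10 members is near the background of the cDC2-like class.

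The summed class II level of KO DMSO lay above that of WT DMSO by less than 1.5-fold in monocyte-derived macrophages, and the levels of resident macrophages were close. In the monocyte-derived class the log2 ratio of the summed level, KO DMSO over WT DMSO, was 0.49 (95% interval 0.48 to 0.51). Cd74 was called higher, at 5465 CPM in KO DMSO and 3606 CPM in WT DMSO cells (1.52-fold). The other 7 members tested were not called, with log2 ratios of 0.47 for H2-Aa, 0.44 for H2-Eb1, 0.28 for H2-Ab1 and 0.073 for Ciita. Of all 8228 genes tested, 1.82% were called higher and 5.01% lower, and the median log2 ratio was 0.29 over the members tested and -0.089 over all genes tested. In resident macrophages the summed log2 ratio was 0.041 (95% interval 0.015 to 0.067). There 0 of 7 members were called, beside 2.25% of genes called higher and 4.0% lower, and the median log2 ratio was -0.014 over the members tested and -0.065 over all genes tested. In the classes not known to make class II the ratio was close to that of monocyte-derived macrophages, at 0.50 (95% interval 0.45 to 0.56) in T cell-like and 0.48 (95% interval 0.27 to 0.68) in neutrophil-like cells, and the part of free RNA in the monocyte-derived ratio was not tested. Whether the 2 macrophage classes differ in this ratio could not be tested with 1 pool of mice a group.

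In conventional dendritic cells and B cells the summed level of KO DMSO also lay above that of WT DMSO by less than 1.5-fold. The summed log2 ratio of KO DMSO over WT DMSO was 0.43 (95% interval 0.42 to 0.45) in cDC1-like and 0.41 (95% interval 0.39 to 0.44) in cDC2-like cells. Of 10 members, 1 was called higher in cDC1-like cells, H2-DMb1, at 870.5 CPM in KO DMSO and 528 CPM in WT DMSO cells (1.65-fold). In cDC2-like cells 5 of 10 were called higher. They were Cd74 with a log2 ratio of 0.64, H2-DMb1 with 0.75, H2-DMb2 with 0.83, H2-Oa with 0.62 and Ciita with 0.70. No member was called lower in either class. The share of all genes called higher was 4.52% in cDC1-like and 7.07% in cDC2-like cells, and the share called lower was 9.37% in cDC1-like and 9.9% in cDC2-like cells. The median log2 ratio in cDC1-like cells was 0.26 over the members tested and -0.084 over all genes tested, and in cDC2-like cells 0.45 over the members tested and -0.074 over all genes tested. Other values moved with the cDC2-like class. Its own markers summed to 3837 CPM in WT GW5074, 5292 CPM in KO DMSO and 3832 CPM in WT DMSO cDC2-like cells, and the resident macrophage markers to 1349.7 CPM in WT GW5074, 737 CPM in KO DMSO and 1359 CPM in WT DMSO cDC2-like cells. The monocyte-derived macrophage markers summed to 1474 CPM in WT GW5074, 1050.4 CPM in KO DMSO and 488 CPM in WT DMSO cDC2-like cells. Neutrophil markers summed to 522 CPM in WT GW5074, 598 CPM in KO DMSO and 1745 CPM in WT DMSO cDC2-like cells. Their part in the class II ratio was not tested. In B cell-like cells the summed log2 ratio was 0.40 (95% interval 0.31 to 0.48), on only 60 KO DMSO cells. There 0 of 10 members were called, beside 3.0% of genes called higher and 2.71% lower.

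**Figure D5:**
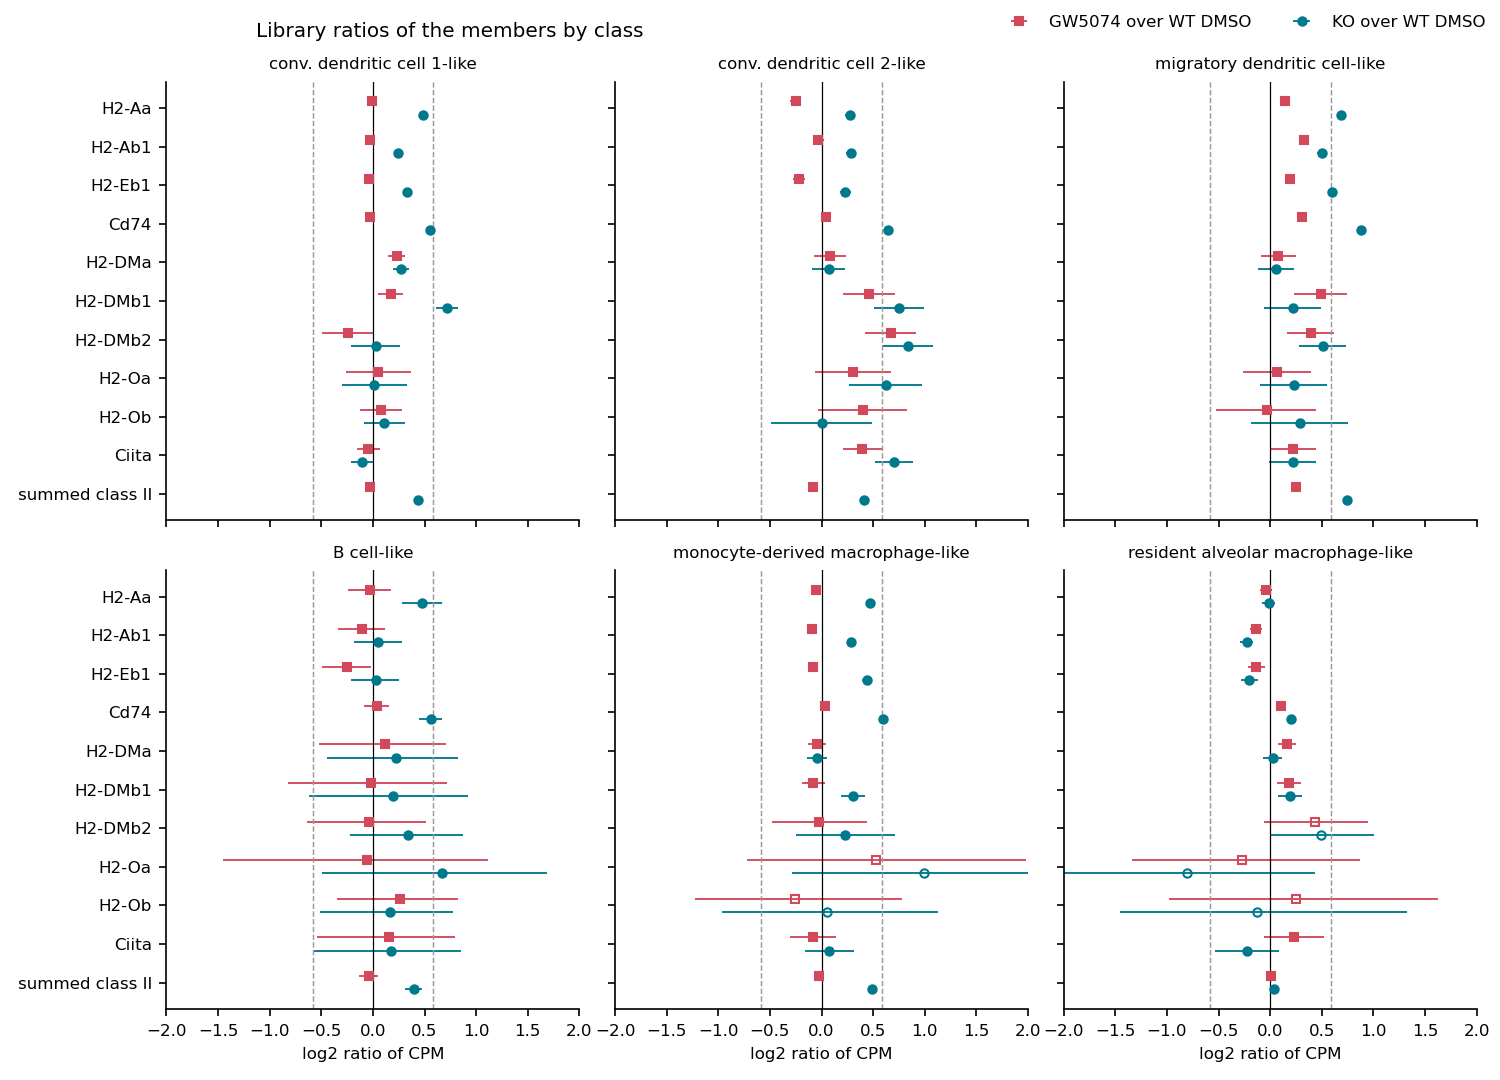
Log2 ratios of each member and of the summed level, for WT GW5074 over WT DMSO and KO DMSO over WT DMSO, by cell class, with 95% counting intervals, which the axis cuts at 2 on either side, and dashed lines at 1.5-fold. Open symbols mark members under 10 CPM, which were not tested. For KO DMSO the summed level lies at 0.49 in monocyte-derived and 0.041 in resident macrophages, and for WT GW5074 at -0.027 and 0.0061.

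More genes were called lower than higher in KO DMSO over WT DMSO in each of these classes but the B cell-like one. Among genes at a mean of 1000 CPM or more the median log2 ratio lay between -0.027 and 0.088 in the 6 classes. With WT GW5074 in place of WT DMSO, the summed log2 ratio of KO DMSO was 0.52 in monocyte-derived and 0.035 in resident macrophages. It was 0.46 in cDC1-like, 0.50 in cDC2-like, 0.50 in migratory and 0.44 in B cell-like cells. In T cell-like cells it was 0.076, and in neutrophil-like cells -0.26. Most calls of members were not made over WT GW5074. Of 10 members, 1 was called higher in cDC2-like cells, Cd74 with a log2 ratio of 0.60, and 0 of 10 in cDC1-like, migratory and B cell-like cells. In monocyte-derived macrophages 0 of 8 were called, with 0.57 for Cd74, and in resident macrophages 0 of 7. Of all genes, 2.7% were called higher in cDC2-like, 3.87% in cDC1-like, 3.36% in migratory, 1.89% in B cell-like, 1.35% in monocyte-derived and 0.982% in resident cells. Both sets of ratios share the KO DMSO library.

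Within monocyte-derived macrophages the KO DMSO level was the highest of the 3 libraries in each of the 3 clusters. The summed log2 ratio of KO DMSO over WT DMSO was 0.44 (95% interval 0.42 to 0.46) in the Mmp12 cluster. It was 0.60 (95% interval 0.56 to 0.63) in the C1qc cluster, past 1.5-fold beside 2.27% of genes called higher. In the Ifit3 cluster it was 0.98 (95% interval 0.86 to 1.11), beside 1.95% of genes called higher. There WT GW5074 over WT DMSO gave 0.84 (95% interval 0.72 to 0.96), beside 1.61% of genes called higher, with 223 WT GW5074, 132 KO DMSO and only 51 WT DMSO cells. The Mmp12 cluster, the one rich in class II, gave 31.4% in WT GW5074, 36.6% in KO DMSO and 41.2% in WT DMSO monocyte-derived macrophage-like cells. Its share in KO DMSO thus lay below that in WT DMSO and above that in WT GW5074. With library means taken out of every gene ahead of clustering, other cells formed the class, and the summed log2 ratio was 1.02 for KO DMSO and 0.56 for WT GW5074, both over WT DMSO. In the Car4 cluster of resident macrophages the summed log2 ratio of KO DMSO over WT DMSO was 0.31 (95% interval 0.28 to 0.34), against 0.041 for the whole class, which held a smaller share of that cluster in KO DMSO. The other resident clusters did not all go the same way. The level was 1291 CPM in KO DMSO and 1192 CPM in WT DMSO cells of the Htr2c cluster. It was 1904 CPM in KO DMSO and 1652 CPM in WT DMSO cells of the Fabp4 cluster. In the Cenpf cluster KO DMSO was the lower, at 2388 CPM against 2692 CPM in WT DMSO cells.

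In migratory dendritic cells the summed log2 ratio of KO DMSO over WT DMSO was the largest of the 6 classes, at 0.75 (95% interval 0.73 to 0.76), but the classes were not made of the same clusters. Of 10 members, 3 were called higher, H2-Aa with a log2 ratio of 0.69, H2-Eb1 with 0.60 and Cd74 with 0.88, beside 4.2% of all genes called higher and 17.8% lower. The cluster led by Mylk and Syn3 gave 2.72% in WT GW5074, 1.5% in KO DMSO and 43.0% in WT DMSO migratory dendritic cell-like cells. Its summed level was 19708 CPM in 74 WT GW5074 and 6185 CPM in 1411 WT DMSO cells, a log2 ratio of 1.67 (95% interval 1.62 to 1.72), beside 9.14% of genes called higher. KO DMSO had only 26 such cells and is not set against it. Because WT DMSO holds most of this cluster, a kind of cell and a trait of the library cannot be told apart. In the cluster led by Syn3 and Ccl5 the level was 10557 CPM in WT GW5074, 13747 CPM in KO DMSO and 11522 CPM in WT DMSO cells of the Syn3 cluster. The log2 ratio of KO DMSO over WT DMSO there was 0.25 (95% interval 0.23 to 0.28). Of 10 members, 0 were called there and only 3 had log2 ratios above 0. The median log2 ratio was -0.15 over the members and -0.10 over all genes tested. The cluster led by Il12b and Ccl5 had 8599.7 CPM in WT GW5074, 14225 CPM in KO DMSO and 8897 CPM in WT DMSO cells of the Il12b cluster. There the ratio was 0.68 (95% interval 0.65 to 0.70), past 1.5-fold beside 4.86% of genes called higher. Of 10 members, 3 were called higher in KO DMSO over WT DMSO in the Il12b cluster. Over WT GW5074, 6 of 10 were called higher in it, beside 4.46% of genes. The size of the KO DMSO difference in migratory cells therefore went with the clusters taken.

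Other genes of the pathway were read from 6 lists with 39 gene symbols, of which 36 were counted. The lists were class II transcription, the interferon gamma receptor and its brake, processing of the invariant chain and antigen, surface turnover, co-stimulation, and other class II loci and receptors. The symbols not found were H2-Ea, and Marchf1 and Marchf8, newer names of March1 and March8, which were counted. In WT GW5074 over WT DMSO, 0 of 28 genes tested were called in the monocyte-derived class and 0 of 28 in the resident class. Among listed genes at 50 CPM or more, high log2 ratios in the monocyte-derived class were 0.29 for Ctsd, a lysosomal protease, and 0.24 for Cd83, which keeps class II at the cell surface. The 3 lowest were -0.24 for Ifngr1, a chain of the interferon gamma receptor, -0.23 for Cd86 and -0.14 for Ifi30, a reductase that unfolds antigens in lysosomes. None of these was 1.5-fold apart. In the resident class the values ran between -0.31 for Nfya and 0.10 for Spi1, with -0.21 for Ctsl and -0.16 for Lgmn at the low end and 0.062 for Ctss and 0.020 for Ctsd at the high end.

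In KO DMSO over WT DMSO, 0 of 27 listed genes were called higher and 2 lower in the monocyte-derived class, and 0 of 28 higher and 2 lower in the resident class. These 2 lower calls in each class stand beside 5.01% of all genes called lower in the monocyte-derived and 4.0% in the resident class. Nfya, a subunit of the Y box factor NF-Y, fell in both, with log2 ratios of -0.61 in the monocyte-derived and -0.73 in the resident class. Irf4, an interferon regulatory factor named here because it was called, fell in the monocyte-derived class, with -1.0. Lgmn, the protease legumain, fell in the resident class, with -0.63. In the monocyte-derived class Lgmn had -0.49 and was not called. Beside it at the low end lay Jak2, a kinase of the interferon receptor, with -0.25 and Ifngr1 with -0.22, and in the resident class Ifngr2 with -0.38. At the high end of the monocyte-derived class lay Ctss, a protease that trims the invariant chain, with 0.23, March1, a ubiquitin ligase acting on class II, with 0.22 and Spi1, which encodes the factor PU.1, with 0.19. At the high end of the resident class lay Spi1 with 0.23, Ctss with 0.14 and Ifi30 with 0.064, and none of these 6 values was called. The median log2 ratio of the 10 tested transcription genes was -0.13 in the monocyte-derived and -0.077 in the resident class, and of the 6 processing genes -0.12 in the monocyte-derived and -0.22 in the resident class. Over all genes it was -0.089 in the monocyte-derived and -0.065 in the resident class.

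The genes whose level followed the summed class II level most closely were read from 6721 genes that were neither members nor class markers, by Pearson's r of log2(CPM + 1) over 24 pairs of a class and a library. The 10 closest were Hepacam2 with r of 0.95, Plekho1 with 0.94, Ildr1 with 0.92, Kctd14 with 0.92, Rps9 with 0.91, Slamf7 with 0.90, Rps6 with 0.90, Cox7a2l with 0.88, Cd86 with 0.88 and Rps25 with 0.88. Cd86 encodes a costimulatory ligand for CD28 on T cells, Slamf7 a receptor of the SLAM family, and Rps9, Rps6 and Rps25 ribosomal proteins. Of the members outside the sum, Ciita had r of 0.91, H2-DMb2 0.86, H2-Ob 0.84, H2-Oa 0.83, H2-DMa 0.82 and H2-DMb1 0.76. The pairs share libraries, and these values describe the 24 pairs only.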

How the data were processed

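Droplet 3′ single-cell RNA sequencing was done on sorted lavage cells of 3 pooled groups, and the authors deposited raw UMI counts per gene and cell barcode. Per the submitters' processing notes, the counts were made with Cell Ranger 2.1.1 on mm10. The labels name 2 different droplet platforms, so the chemistry is not stated here. Gene IDs matched GENCODE M21 for 32159 of 32286 genes.

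The cell filter asked for 200 genes or more and no more than 20% of UMIs from mitochondrial genes. Kept cells were scaled to 10000 UMIs, log-transformed and clustered in scanpy 1.11.5 (2000 variable genes less the 5 members among them, 30 components, 15 neighbours, Leiden resolution 1). A marker counted as raised in a cluster at 2-fold over the median of clusters, 20 CPM and 10% of cells. A cluster took a name if 3 or more markers, making up 25% of that list, were raised in it, 10 percentage points over the next class and a median doublet score up to 0.15. These naming thresholds were set after the data were seen. Scrublet called 735 cells doublets, 1.71%, nearly all in 1 library, so none were removed and an alternative left out the 10% of cells with the highest scores.

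Raw counts were summed per class and library and given as CPM with exact Poisson 95% intervals. Shares have Clopper-Pearson intervals and ratios exact conditional binomial intervals, from scipy 1.17.1, which were tested on simulated counts. They cover counting error only, and pooled mice are not replicated. Classes of under 50 cells in a library were left out. All 10 members are named. Of other genes the 10 most alike in level are named, and of the pathway lists the 3 highest and 3 lowest ratios per macrophage class and comparison at 50 CPM or more, of which 1 gene is not reported here. The members and lists were chosen with earlier results of these data known. The alternatives for the cDC1-like, cDC2-like and B cell-like classes, the scaling on abundant genes and the narrower T cell set were added after the data were seen. Promoter windows are from RefSeq, and transcripts were aligned with Biopython 1.88.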

Additional observations from a re-analysis of the deposited data

How the results depend on the processing

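The summed class II ratios over WT DMSO, the counts of called members and the shares of cells were recomputed under 174 combinations of a result and an alternative, and 96 stayed within the counting interval of the reported value. The other 78 follow, first the log2 ratios over WT DMSO of the summed level and then the shares. With a gate of 3 markers it was 0.51 in monocyte-derived cells for KO DMSO. Without the marker gate it was 0.062 in resident cells for WT GW5074, and 0.12 in resident and 0.37 in cDC2-like cells for KO DMSO. With the largest cluster of a class alone it was 0.23 in monocyte-derived and -0.13 in migratory cells for WT GW5074, and 0.60 in monocyte-derived, 0.31 in resident and 0.25 in migratory cells for KO DMSO. At a clustering resolution of 0.5 it was 0.0093 in monocyte-derived and -0.19 in cDC1-like cells for WT GW5074, and 0.36 in cDC1-like, 0.45 in cDC2-like and 0.76 in migratory cells for KO DMSO. At a resolution of 2 it was -0.073 in monocyte-derived, 0.050 in resident, 0.00010 in cDC1-like and 0.11 in B cell-like cells for WT GW5074, and 0.40 in monocyte-derived, 0.46 in cDC1-like, 0.50 in cDC2-like and 0.78 in migratory cells for KO DMSO. With the members in the clustering it was -0.046 in resident cells for WT GW5074, and 0.46 in monocyte-derived, -0.046 in resident, 0.44 in cDC2-like and 0.77 in migratory cells for KO DMSO. With genes centred within libraries before clustering it was 0.56 in monocyte-derived and -0.20 in resident cells for WT GW5074, and 1.02 in monocyte-derived, -0.17 in resident and 0.79 in migratory cells for KO DMSO. As a mean of CPM over cells it was 0.044 in resident, 0.032 in cDC2-like, 0.28 in migratory and 0.13 in B cell-like cells for WT GW5074, and 0.43 in monocyte-derived and 0.80 in migratory cells for KO DMSO. Without the 10% of cells with the highest doublet scores it was 0.0045 in monocyte-derived, -0.058 in resident, 0.10 in cDC2-like and 0.11 in B cell-like cells for WT GW5074, and 0.53 in monocyte-derived, -0.019 in resident and 0.47 in cDC2-like cells for KO DMSO. Centred on the median of all genes it was -0.069 in cDC1-like, -0.13 in cDC2-like and 0.29 in migratory cells for WT GW5074, and 0.58 in monocyte-derived, 0.11 in resident, 0.52 in cDC1-like, 0.49 in cDC2-like and 0.93 in migratory cells for KO DMSO. Centred on the median of abundant genes it was -6.4e-05 in monocyte-derived, 0.025 in cDC1-like, 0.18 in cDC2-like, 0.31 in migratory and 0.10 in B cell-like cells for WT GW5074, and 0.35 in cDC1-like, 0.44 in cDC2-like and 0.66 in migratory cells for KO DMSO. Less the mean class II UMIs per T cell-like cell it was -0.52 in monocyte-derived, -0.14 in cDC1-like, -0.25 in cDC2-like, -0.52 in migratory and -2.39 in B cell-like cells for WT GW5074, and 0.90 in migratory and 0.24 in B cell-like cells for KO DMSO. Less those per cell of the narrower T cell set it was -0.062 in monocyte-derived, -0.11 in resident and 0.21 in migratory cells for WT GW5074. The value of -2.39 rests on a small remainder. T cell-like cells averaged 12.1 class II UMIs in WT GW5074 and 11.5 in WT DMSO. B cell-like cells averaged 13.3 in WT GW5074 and 22.1 in WT DMSO, so the subtraction took away most of the WT GW5074 count. The cause of the other shifts was not tested. Under no alternative did a called value change sign, but of the summed class ratios recomputed here only that of migratory cells for KO DMSO was called. Some ratios not called passed 1.5-fold under an alternative, such as 1.02 in monocyte-derived cells for KO DMSO with genes centred within libraries. The values listed above hold no count of called members. In migratory cells for KO DMSO over WT DMSO, 3 of 10 members were called higher in the whole class. In the largest cluster alone 0 of 10 were called. In resident macrophages, where the reported ratios are close to 0, the sign differed between alternatives, and in migratory cells the WT GW5074 ratio was below 0 with the largest cluster alone and less the T cell-like level. The KO DMSO ratio of the monocyte-derived, cDC1-like, cDC2-like, migratory and B cell-like classes was above 0 under each alternative that gave a value. Thinned to 1000 UMIs, the share of cells with a class II UMI was 62.7% in WT GW5074, 62.0% in KO DMSO and 59.2% in WT DMSO resident macrophages. It was 80.4% in WT GW5074, 84.2% in KO DMSO and 79.7% in WT DMSO monocyte-derived macrophages, and 71.5% in WT GW5074 T cell-like cells. Resident macrophages gave no value less the T cell-like level, which lay above theirs, and KO DMSO B cell-like cells fell under 50 cells with the stricter cell filter. No paired analysis was possible because each group has 1 library. Leaving out a replicate was not possible for the same reason. Depth limits H2-Oa and H2-Ob in macrophages, which lay under 10 CPM, and the classes of few cells, B cell-like cells first.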

Other observations

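Plasmacytoid dendritic cell-like cells numbered under 50 in each library and were left out of the comparisons. Their summed class II level was 4401 CPM in WT GW5074, 7669 CPM in KO DMSO and 5657 CPM in WT DMSO cells, of 27 WT GW5074, 20 KO DMSO and 28 WT DMSO cells.

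The following genes of the pathway lists were chosen after their values were seen. H2-Eb2, a class II beta chain locus beside H2-Eb1, was at 123 CPM in WT GW5074, 115 CPM in KO DMSO and 90.2 CPM in WT DMSO migratory dendritic cell-like cells, and at 97.0 CPM in WT GW5074, 51.0 CPM in KO DMSO and 73.4 CPM in WT DMSO B cell-like cells. It was at 6.23 CPM in WT GW5074, 6.11 CPM in KO DMSO and 5.38 CPM in WT DMSO cDC1-like cells. March1, a ubiquitin ligase that takes class II off the cell surface, was at 495 CPM in WT GW5074, 451 CPM in KO DMSO and 441 CPM in WT DMSO cDC1-like cells, against 20.1 CPM in WT GW5074, 11.7 CPM in KO DMSO and 11.1 CPM in WT DMSO migratory dendritic cell-like cells. Cd83, which counters that ligase, was at 866 CPM in WT GW5074, 697 CPM in KO DMSO and 612 CPM in WT DMSO migratory dendritic cell-like cells, against 175 CPM in WT GW5074, 134 CPM in KO DMSO and 125 CPM in WT DMSO cDC1-like cells. Irf8, a transcription factor of type 1 dendritic cells, was at 1689 CPM in WT GW5074, 1348 CPM in KO DMSO and 1592 CPM in WT DMSO cDC1-like cells, against 153 CPM in WT GW5074, 134 CPM in KO DMSO and 142 CPM in WT DMSO monocyte-derived macrophage-like cells.

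Of the clusters given no class, cluster 19 had the highest summed class II level, at 20887 CPM in WT GW5074, 27493 CPM in KO DMSO and 23649 CPM in WT DMSO cells, of 321 WT GW5074, 155 KO DMSO and 97 WT DMSO cells. It was led by Xcr1, Sept3, Clnk. Clusters 3 and 1, led by Ccl5, Il12b, Fscn1 and by S100a9, Stfa2l1, Hdc, had 7944 CPM in WT GW5074, 10462 CPM in KO DMSO and 7869 CPM in WT DMSO cells of cluster 3 and 6767 CPM in WT GW5074, 6287 CPM in KO DMSO and 4959 CPM in WT DMSO cells of cluster 1. Clusters 19 and 3 were given no class because their median doublet scores lay above 0.15, and cluster 1 because markers of neutrophils and of monocyte-derived macrophages scored alike in it.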
